A study of Apis cerana with 9 samples.

Results

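The aminoacyl-tRNA biosynthesis genes of *Apis cerana*, the eastern honey bee, were read from the deposited gene table by its KEGG column, where 49 of 12757 genes carried the term Aminoacyl-tRNA biosynthesis. No gene of a tRNA itself had to be removed. The description of each gene set its compartment: 14 genes were named as cytoplasmic (cytosolic), 16 as mitochondrial and for 19 no compartment was given. The table covered 9 RNA-seq libraries. All were made from the proboscis, the mouthpart used for sucking nectar, of rapeseed pollen-carrying bees (rapeseed), pear pollen-carrying bees (pear) and non-pollen-carrying bees (non-pollen), with 3 libraries in each group. The labels give no colony, age, caste or collection day for any group, and all 3 groups are of 1 species. Nor do they tell whether the 3 libraries of a group are different bees or colonies, and the p-values below therefore cover only the spread among these libraries, which may be technical. The comparisons ask how the genes differ between bees with and without pollen, and between the 2 kinds of pollen.

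Aminoacyl-tRNA synthetases, also called tRNA ligases, join each amino acid to the tRNA that reads its codons, and they supply the ribosome with charged tRNAs. Animal cells keep separate sets for the cytosol, where most protein is made, and for the mitochondrion, where a few subunits of the respiratory chain are made. Both sets are coded in the nucleus, and some enzymes, such as glycine-tRNA ligase in many animals, serve both places.

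The libraries held 43034759 to 64306245 counts, and the 49 genes took 0.211% to 0.251% of the counts of a library. The non-pollen libraries stood apart from the others. A list of gland genes (39 genes, royal jelly proteins and secreted enzymes, with some sugar dehydrogenases of other roles) took 0.794% to 0.837% of counts in rapeseed libraries, 0.901% to 1.21% in pear libraries and 37.1% to 37.6% in non-pollen libraries. Genes of this list at 0 in all libraries of a group numbered 1 in rapeseed, 0 in pear and 1 in non-pollen. A list of 30 muscle genes took 8.87% to 8.91%, 9.14% to 9.44% and 4.3% to 4.39% in the rapeseed, pear and non-pollen groups, with 0, 1 and 1 of its genes at 0. A list of 12 photoreceptor genes took 0.00625% to 0.00668%, 0.00652% to 0.00737% and 0.0802% to 0.0862%, with 0, 1 and 0 genes at 0. The part of these other tissues in the differences below was not tested. The proboscis has no marker set of its own in the lists used. In bulk tissue, fewer cells of a type and less RNA per cell cannot be told apart.

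Royal jelly protein genes alone took 32.1% to 32.4% of the counts of non-pollen libraries, and the direction of many genes depended on the scaling between libraries. The main scaling was TMM, which centres the bulk of genes. With it the median log2 fold change of the 9259 genes tested was -0.02 in rapeseed and -0.01 in pear against non-pollen libraries. With library totals as the only scaling it was 0.47 and 0.53, and the share of called genes that were higher was 89.9% in rapeseed and 91.8% in pear, against 49.4% and 50.9% with TMM. All changes below are therefore relative to the bulk of genes, on the TMM scale, unless library totals are named. A gene was called when the quasi-likelihood test of edgeR gave it an adjusted p below 0.05. Of the 49 genes, 46 passed the filter on low values, and all 46 had at least 1 FPKM (the authors' fragment values per gene length and library size) in every library.

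Per length, the cytosolic ligases were the more abundant set. Their median over the mean FPKM of 9 libraries was 19.9, with a range of 11 to 57.8, against 11.5 (3.03 to 28.7) for mitochondrial enzymes and 11.4 for all genes tested. The 3 most abundant cytosolic ligases were those of aspartate (LOC108000956, 57.8 FPKM), threonine (LOC107995339, 52.1 FPKM) and histidine (LOC107992494, 51 FPKM). The lowest were those of methionine (LOC107993527, 13.7 FPKM), alanine (LOC108004192, 12.1 FPKM) and isoleucine (LOC108002508, 11 FPKM). This order is over all 9 libraries, 6 of them from pollen groups. The authors' FPKM of alanine ligase averaged 9.11 ± 0.722 in rapeseed, 9.96 ± 0.710 in pear and 17.2 ± 0.761 in non-pollen libraries (SD, n = 3 each), the lowest cytosolic level in both pollen groups but above methionine (13.0 FPKM), cysteine (13.7 FPKM) and isoleucine (10.7 FPKM) in the non-pollen group. In that group asparagine ligase (LOC107999711) was highest, at 52.0 ± 1.42 FPKM, near aspartate ligase at 50.9 ± 2.54 FPKM. Every cytosolic enzyme was well expressed, since the lowest FPKM of any of them in any library was 8.67. Among mitochondrial enzymes the most abundant was amidotransferase subunit B (LOC108002545, 28.7 FPKM), followed by the aspartate (LOC107992629, 26 FPKM) and tyrosine (LOC107997794, 20.2 FPKM) ligases. The least abundant were the alanine ligase (LOC108002207, 5.25 FPKM), amidotransferase subunit A (LOC108002462, 4.87 FPKM) and the arginine ligase (LOC107996647, 3.03 FPKM). In the set with no stated compartment, a valine ligase (LOC107993366, 79.7 FPKM), the coiled-coil protein CCDC25 (LOC108000135, 48.8 FPKM) and the beta subunit of phenylalanine ligase (LOC108000852, 39.5 FPKM) led. The lowest there were the glutamyl-tRNA synthetase (LOC108002197, 8.12 FPKM), another valine ligase (LOC107997194, 5.91 FPKM) and a gene described as O-phosphoseryl-tRNA(Sec) selenium transferase (LOC107997996, 1.91 FPKM).

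The cytosolic ligases were lower in both pollen groups than in the non-pollen group. In rapeseed against non-pollen libraries 14 of 14 were called lower, and their log2 fold changes had a median of -0.57 and a range of -1.42 to -0.15. In pear against non-pollen libraries 12 of 14 were called lower and 0 higher, with a median of -0.45. The background was wide: edgeR called 59.6% of all genes tested in rapeseed against non-pollen (29.4% higher and 30.2% lower) and 56% in pear against non-pollen (28.5% higher and 27.5% lower). The mitochondrial enzymes lay nearer to the bulk of genes. Of 16 tested, 8 were lower and 0 higher in rapeseed, with a median of -0.16, and 7 were lower and 0 higher in pear, with a median of -0.12. The comparisons with pear and with rapeseed share the same 3 non-pollen libraries, so they are given side by side and not as independent of each other.

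**Figure D1:**
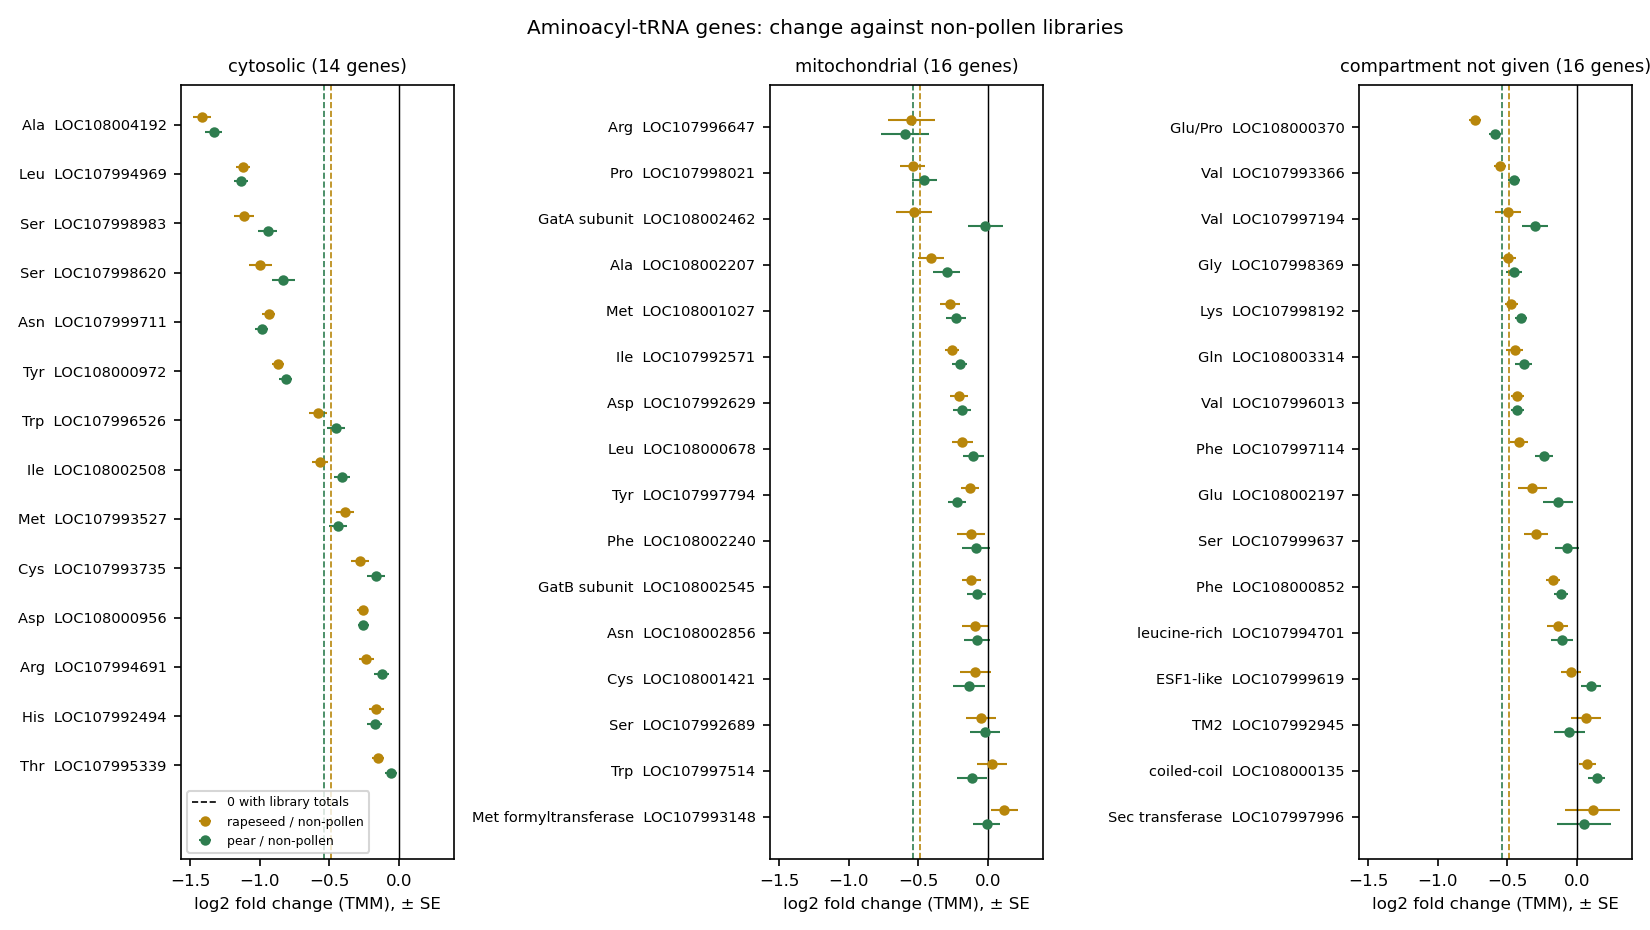
Log2 fold change after TMM scaling (horizontal axis, ± standard error) of each of the 46 genes tested, in rapeseed (ochre) and pear (green) against non-pollen libraries, by compartment. GatA and GatB are amidotransferase subunits A and B, Sec is selenocysteine and TM2 is almondex; the black line is at 0 and the dashed lines (same colours) mark where a gene would be at 0 with library totals as the only scaling; 6 cytosolic ligases, alanine to tyrosine, lie to the left of both dashed lines in both comparisons.

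The fall was largest for alanine, leucine, serine, asparagine and tyrosine. Alanine-tRNA ligase (LOC108004192, scaffold NW_016017455.1, 1519003 to 1524112, plus strand) attaches alanine and has its own editing site for mischarged serine. It had 30.8, 30.8 and 35.2 CPM (counts scaled by the TMM library size) in rapeseed libraries, 34.6, 35.9 and 32.1 CPM in pear libraries and 84.5, 89.0 and 84.8 CPM in non-pollen libraries. Every rapeseed and pear library was below every non-pollen library, and the rapeseed and pear values overlapped. The log2 fold change was -1.42 in rapeseed (SE 0.0621, adjusted p = 1.6e-20, edgeR) and -1.33 in pear (SE 0.0621, adjusted p = 1.12e-19, edgeR).

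Leucine-tRNA ligase (LOC107994969, scaffold NW_016018566.1, 4147267 to 4152706, plus strand) is in animals a part of the multisynthetase complex and a leucine sensor of the TOR pathway in mammals and yeast. Its level was 51.4, 48.8 and 52.8 CPM in rapeseed libraries, 51.1, 51.5 and 48.9 CPM in pear libraries and 113.5, 107.8 and 111.5 CPM in non-pollen libraries. The values of the pollen groups overlapped and lay far below all 3 non-pollen values. The log2 fold change was -1.12 in rapeseed (SE 0.0503, adjusted p = 3.07e-20) and -1.14 in pear (SE 0.0505, adjusted p = 2.89e-20) by edgeR.

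Serine-tRNA ligase, which charges the serine tRNAs, is listed at 2 cytosolic loci. LOC107998983 (72872 to 74942) and LOC107998620 (85378 to 87448) lie on the minus strand of scaffold NW_016017479.1, are both 2071 bp long and are 10435 bp apart, so they may be close copies that share reads, and their separate values are uncertain. LOC107998983 had 25.8, 25.7 and 22.0 CPM in rapeseed libraries, 28.2, 26.5 and 27.9 CPM in pear libraries and 51.8, 52.8 and 54.4 CPM in non-pollen libraries. LOC107998620 had 25.2, 25.02 and 21.3 CPM in rapeseed libraries, 27.3, 26.2 and 26.8 CPM in pear libraries and 49.6, 52.4 and 41.0 CPM in non-pollen libraries. Both loci were lower in each library of the pollen groups than in any non-pollen library, by a log2 fold change of -1.11 and -0.999 in rapeseed (adjusted p = 9.85e-16 and 1.24e-12, edgeR). In pear the changes were -0.95 and -0.83 (adjusted p = 9.19e-14 and 1.25e-10, edgeR).

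Asparagine-tRNA ligase (LOC107999711, scaffold NW_016019353.1, 1015461 to 1018405, minus strand) had 73.9, 75.3 and 73.5 CPM in rapeseed libraries, 74.5, 70.1 and 70.4 CPM in pear libraries and 148.2, 141.5 and 136.5 CPM in non-pollen libraries. Its log2 fold change was -0.94 in rapeseed (SE 0.0456, adjusted p = 3.3e-19) and -0.99 in pear (SE 0.0458, adjusted p = 1.01e-19, edgeR), with no overlap of either pollen group with the non-pollen group. Tyrosine-tRNA ligase (LOC108000972, scaffold NW_016019508.1, 639415 to 644471, plus strand), described as an uncharacterized protein and as this enzyme, had 67.1, 66.7 and 65.0 CPM in rapeseed libraries, 71.4, 65.9 and 69.4 CPM in pear libraries and 122.0, 121.7 and 119.4 CPM in non-pollen libraries. It was lower by the same pattern, with a log2 fold change of -0.87 in rapeseed (adjusted p = 4.13e-18) and -0.81 in pear (adjusted p = 3.52e-17, edgeR).

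These 6 loci were called lower with TMM and also with library totals in both comparisons. They were 42.9% of the 14 cytosolic ligases, whereas 7.84% of all genes tested met the same rule in rapeseed and 6.66% in pear. Both serine loci, which may share reads, are counted in that share. Of the 16 mitochondrial enzymes 0 met it in either comparison. The other 8 cytosolic ligases did not keep their direction so firmly: with library totals 5 of them were called higher in rapeseed and 5 in pear.

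The remaining cytosolic ligases changed less. Tryptophan (LOC107996526) and isoleucine (LOC108002508) ligases had log2 fold changes of -0.58 and -0.57 in rapeseed and -0.46 and -0.41 in pear. Methionine ligase (LOC107993527), whose product in its initiator form starts each protein, changed by -0.39 and -0.44, and cysteine ligase (LOC107993735) by -0.28 and -0.17, in rapeseed and pear against non-pollen libraries. Aspartate ligase (LOC108000956), the most abundant, had 157.2, 163.9 and 151.8 CPM in rapeseed libraries, 160.1, 153.3 and 160.0 CPM in pear libraries and 184.7, 196.3 and 184.6 CPM in non-pollen libraries, a log2 fold change of -0.26 in both comparisons. With library totals it was higher, at 0.23 in rapeseed and 0.28 in pear. The smallest falls in rapeseed were those of arginine (LOC107994691, -0.23, adjusted p = 0.000407), histidine (LOC107992494, -0.16, adjusted p = 0.00846) and threonine (LOC107995339, -0.15, adjusted p = 0.00197, edgeR) ligases. The call for histidine was lost without non-pollen replicate 1 (-0.12) and without rapeseed replicate 3 (-0.10). In pear, arginine (-0.12, adjusted p = 0.0538) and threonine (-0.06, adjusted p = 0.233) ligases did not pass the test. Arginine ligase passed in pear without non-pollen replicate 1 (-0.14) or 3 (-0.15), and cysteine ligase lost its pear call without non-pollen replicate 2 (-0.14) or pear replicate 3 (-0.10). Histidine and threonine ligases were higher with library totals, at 0.33 and 0.34 in rapeseed and 0.36 and 0.48 in pear.

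Threonine ligase illustrates the low end of this order. It had 143.2, 153.5 and 148.3 CPM in rapeseed libraries, 160.6, 159.8 and 153.8 CPM in pear libraries and 172.0, 163.5 and 158.1 CPM in non-pollen libraries. Pear and non-pollen values overlapped. By structural family, the cytosolic class I and class II synthetases, which fold and bind ATP differently, did not part cleanly. Their medians were -0.57 and -0.94 in rapeseed and -0.44 and -0.83 in pear, with 7 loci in each family. Class II counts both serine loci, which may share reads, so the serine enzyme may weigh too much in its median. Class II held both the largest fall (alanine) and the smallest (threonine).

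No mitochondrial enzyme fell as far as the 6 cytosolic loci above, but the 2 sets overlapped. Cytosolic histidine and threonine ligases were at -0.161 and -0.149 in rapeseed and at -0.175 and -0.057 in pear. All mitochondrial enzymes called lower (8 in rapeseed, 7 in pear) fell further than both. The arginine ligase (LOC107996647, scaffold NW_016019108.1, 5284673 to 5287018, plus strand), the least abundant of the mitochondrial enzymes, had 4.36, 4.04 and 4.47 CPM in rapeseed libraries, 4.46, 4.08 and 3.92 CPM in pear libraries and 6.47, 6.98 and 5.40 CPM in non-pollen libraries. Its log2 fold change was -0.55 in rapeseed (SE 0.172, adjusted p = 0.00652) and -0.60 in pear (SE 0.173, adjusted p = 0.0038, edgeR). Proline ligase (LOC107998021) had 16.9, 18.6 and 17.4 CPM in rapeseed libraries, 20.1, 18.5 and 17.5 CPM in pear libraries and 24.4, 26.9 and 25.5 CPM in non-pollen libraries. Its changes were -0.54 (adjusted p = 3e-06) and -0.46 (adjusted p = 4.51e-05, edgeR), and in neither comparison did the groups overlap. With library totals the arginine ligase was at -0.06 in both comparisons and the proline ligase at -0.05 in rapeseed and 0.08 in pear, none of them called.

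Alanine (LOC108002207) and methionine (LOC108001027) ligases of the mitochondrion also fell, by log2 fold changes of -0.41 and -0.28 in rapeseed and -0.30 and -0.23 in pear. The alanine enzyme had 14.9, 13.4 and 14.7 CPM in rapeseed libraries, 15.8, 16.0 and 14.8 CPM in pear libraries and 20.02, 18.7 and 18.4 CPM in non-pollen libraries. The methionine enzyme had 34.7, 29.6 and 31.2 CPM in rapeseed libraries, 33.2, 33.3 and 32.2 CPM in pear libraries and 38.0, 37.2 and 40.3 CPM in non-pollen libraries. Both enzymes were below all non-pollen libraries in each pollen library, but with library totals both had positive values (0.08 and 0.22 in rapeseed, 0.24 and 0.31 in pear), of which the 0.08 of the alanine enzyme did not pass the test. Isoleucine (LOC107992571, -0.26 and -0.20) and aspartate (LOC107992629, -0.21 and -0.19) ligases were called in both comparisons, leucine ligase (LOC108000678, -0.19) in rapeseed and tyrosine ligase (LOC107997794, -0.22) in pear. With library totals all 4 were above 0 in both comparisons. The leucine call was lost in rapeseed when any rapeseed library, or non-pollen replicate 2 or 3, was left out (-0.20 to -0.16), and the aspartate call was lost in pear without pear replicate 3 (-0.11).

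The mitochondrial ligases of phenylalanine (LOC108002240), asparagine (LOC108002856), cysteine (LOC108001421), serine (LOC107992689) and tryptophan (LOC107997514) did not pass the test in either comparison. The same held for subunit B of the amidotransferase and for the formyltransferase (LOC107993148), which puts a formyl group on the initiator methionyl-tRNA of the mitochondrion. Their log2 fold changes ran between -0.13 and 0.12. Subunit B passed the test in rapeseed only without non-pollen replicate 3 (-0.17). Formyltransferase levels were 17.0, 19.0 and 19.1 CPM in rapeseed libraries, 16.4, 18.4 and 15.7 CPM in pear libraries and 17.3, 18.1 and 15.4 CPM in non-pollen libraries, so all 3 groups overlapped.

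Both a cytosolic and a mitochondrial ligase were listed for 11 amino acids, and since serine has 2 cytosolic loci they gave 12 pairs. A pair can be compared inside each library, where the scaling between libraries cancels. The cytosolic enzyme changed by less than 0 relative to its mitochondrial partner in 11 of 12 pairs in rapeseed and in 11 of 12 in pear against non-pollen libraries. The median difference between the log2 fold changes was -0.68 in rapeseed and -0.47 in pear. The cytosolic-to-mitochondrial gap did not overlap between the groups in 9 pairs in rapeseed (8 lower, 1 higher) and in 10 pairs in pear (9 lower, 1 higher). The serine pairs share a mitochondrial partner (LOC107992689), and their cytosolic loci may share reads, so they are not separate pairs. No share of gaps without overlap was computed for other pairs of genes, so these counts have no background. Over single genes, edgeR called 59.6% of all tested in rapeseed and 56% in pear against non-pollen. That is another measure and gives no background for the pairs. The largest differences were those of serine (LOC107998983, -1.06 in rapeseed and -0.92 in pear), alanine (-1.01 and -1.04), leucine (-0.94 and -1.03) and asparagine (-0.85 and -0.91).

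In the alanine pair the log2 ratio of cytosolic to mitochondrial CPM was 1.05, 1.20 and 1.26 in rapeseed libraries, 1.13, 1.17 and 1.12 in pear libraries and 2.08, 2.25 and 2.21 in non-pollen libraries. In the leucine pair it was 0.86, 0.79 and 0.98 in rapeseed libraries, 0.73, 0.82 and 0.80 in pear libraries and 1.96, 1.72 and 1.77 in non-pollen libraries. In these pairs and in those of serine and asparagine, the mitochondrial partner lay closer between the groups than the cytosolic enzyme did. The alanine partner was still called lower in both comparisons (-0.41 and -0.30), and the leucine partner in rapeseed (-0.19). The leucine one had 28.3, 28.2 and 26.8 CPM in rapeseed libraries, 30.9, 29.2 and 28.0 CPM in pear libraries and 29.2, 32.7 and 32.8 CPM in non-pollen libraries. The serine one had 18.2, 17.2 and 19.4 CPM in rapeseed libraries, 21.7, 18.9 and 15.4 CPM in pear libraries and 18.9, 21.0 and 17.0 CPM in non-pollen libraries. The asparagine one had 23.1, 19.8 and 23.7 CPM in rapeseed libraries, 23.9, 22.5 and 20.7 CPM in pear libraries and 20.7, 24.8 and 25.1 CPM in non-pollen libraries. The serine and asparagine partners overlapped across all groups.

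**Figure D2:**
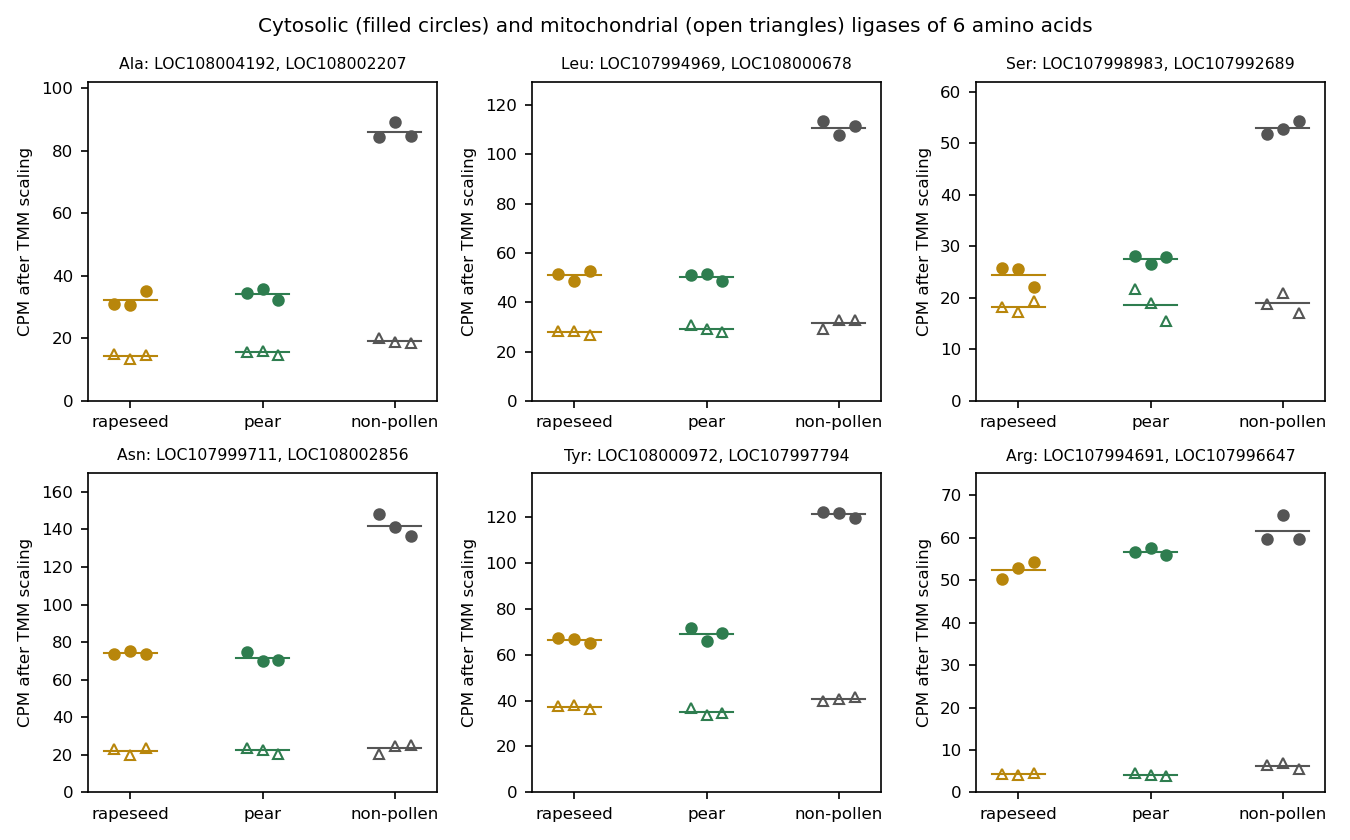
CPM after TMM scaling (vertical axis, from 0) of the cytosolic (filled circles) and mitochondrial (open triangles) ligase of 6 amino acids in each of the 3 rapeseed, 3 pear and 3 non-pollen libraries; horizontal lines are group means. For alanine the cytosolic values are 30.8 to 35.9 in the pollen groups and 84.5 to 89.0 in non-pollen libraries, while for arginine both enzymes are lower and the mitochondrial one by more.

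Arginine was the exception. The log2 fold change of its cytosolic ligase was above that of the mitochondrial one by 0.32 in rapeseed and by 0.47 in pear. The log2 ratio was 3.52, 3.71 and 3.60 in rapeseed libraries, 3.66, 3.82 and 3.83 in pear libraries and 3.21, 3.23 and 3.47 in non-pollen libraries. The pair has the largest gap of levels of the 12, because its mitochondrial member is at 3.03 FPKM. The aspartate pair, with a difference of -0.05 in rapeseed, had overlapping ratios.

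Summed over each set, the same pattern appeared in every library. The 14 cytosolic ligases summed to 873.3 ± 13.4 CPM in rapeseed, 904.3 ± 15.1 CPM in pear and 1285 ± 29.3 CPM in non-pollen libraries (SD, n = 3 each), which is 32.1% lower in rapeseed and 29.6% lower in pear than in non-pollen. The 16 mitochondrial enzymes summed to 395.8 ± 7.19, 402.8 ± 25.2 and 452.6 ± 7.37 CPM in the rapeseed, pear and non-pollen groups, 12.6% and 11% lower in rapeseed and pear. Counts on the cytosolic set were 2.18, 2.25 and 2.19 times those on the mitochondrial set in rapeseed libraries, 2.17, 2.2 and 2.38 times in pear libraries and 2.85, 2.85 and 2.82 times in non-pollen libraries. This ratio was lower in all 6 pollen libraries than in any non-pollen library. On the mean-log2 scale, the gap between the sets was smaller by 0.44 in rapeseed (change -0.44, pooled SD 0.0243) and by 0.40 in pear (change -0.40, pooled SD 0.0495) than in non-pollen libraries. With 3 libraries a group the smallest p of an exact permutation test is 0.1, so the values are given without one.

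The same counts read as a share of the library look different. In non-pollen libraries the gland list took 37.1% to 37.6% of that total. Its genes did not all go 1 way: of 25 tested, 8 were higher and 12 lower in rapeseed on the TMM scale. In pear 7 were higher and 14 lower. The cytosolic set took 0.0967% ± 0.00149 of counts in rapeseed, 0.103% ± 0.0038 in pear and 0.101% ± 0.00221 in non-pollen libraries (SD, n = 3 each). The mitochondrial set took 0.0438% ± 0.000869, 0.0460% ± 0.00383 and 0.0356% ± 0.000626 in the rapeseed, pear and non-pollen groups. By this measure the cytosolic share was about level and the mitochondrial share was higher in the pollen groups, while the ratio between the sets is the same by both measures.

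**Figure D3:**
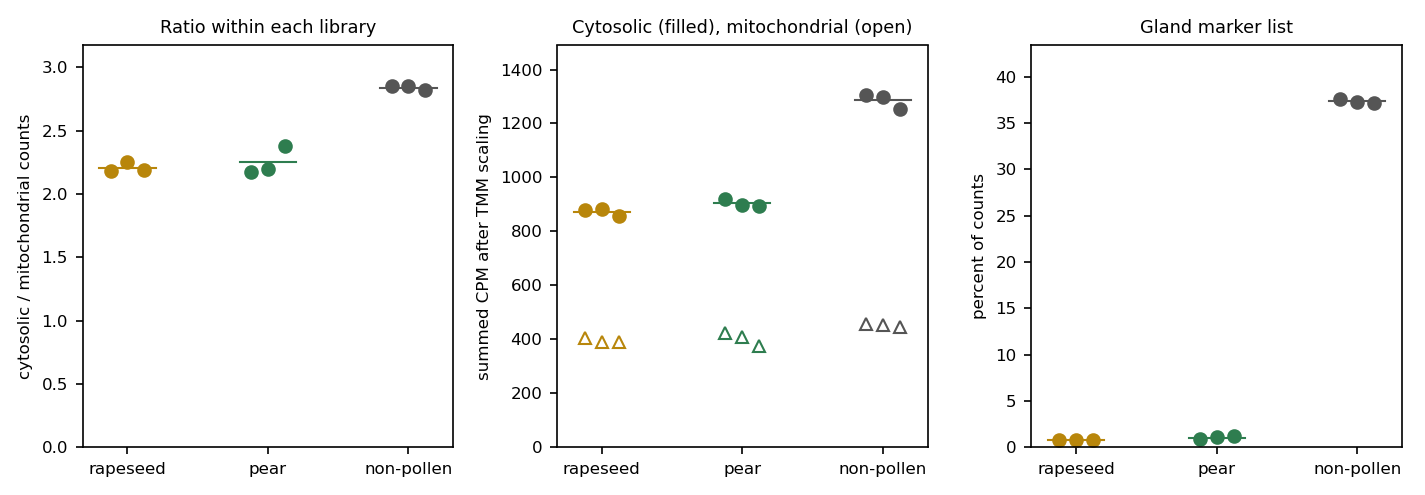
Left, counts on the 14 cytosolic genes divided by counts on the 16 mitochondrial genes in each library; middle, summed CPM after TMM scaling of the cytosolic (filled) and mitochondrial (open) sets; right, percent of counts on the gland gene list. The 3 rapeseed and 3 pear libraries lie at ratios of 2.17 to 2.38 and the 3 non-pollen libraries at 2.82 to 2.85, and the gland list separates the same libraries.

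The genes with no stated compartment include 12 ligases, of which 11 were tested. In rapeseed 11 of 11 were lower, with a median of -0.45, and in pear 8 of 11 were lower, with a median of -0.38. Over all genes tested, 30.2% were lower in rapeseed and 27.5% in pear. Of all 16 genes tested with no stated compartment, 1 was lower with library totals too in rapeseed and 0 in pear. The bifunctional aminoacyl-tRNA synthetase (LOC108000370, scaffold NW_016019441.1, 3937158 to 3941900, plus strand), which in *Drosophila* carries the glutamate and proline activities in 1 chain, changed most. It had 84.0, 86.4 and 83.7 CPM in rapeseed libraries, 98.4, 89.9 and 92.7 CPM in pear libraries and 145.6, 135.3 and 141.4 CPM in non-pollen libraries. No library of a pollen group reached the non-pollen range, and the log2 fold change was -0.73 in rapeseed (SE 0.045, adjusted p = 2.52e-16) and -0.59 in pear (SE 0.0449, adjusted p = 1.14e-13, edgeR). With library totals it stayed called lower in rapeseed, while in pear it was at -0.05 and not called.

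The table lists 3 valine ligases, and since they may share reads their separate values are uncertain. LOC107993366 had 91.5, 93.3 and 86.0 CPM in rapeseed libraries, 96.2, 95.7 and 99.0 CPM in pear libraries and 134.3, 132.8 and 130.5 CPM in non-pollen libraries. LOC107996013 had 68.3, 71.1 and 73.3 CPM in rapeseed libraries, 70.7, 72.9 and 69.3 CPM in pear libraries and 94.2, 98.5 and 93.6 CPM in non-pollen libraries. LOC107997194 had 16.6, 16.1 and 15.4 CPM in rapeseed libraries, 19.7, 18.8 and 16.6 CPM in pear libraries and 22.0, 24.5 and 21.3 CPM in non-pollen libraries. Each was lower in all pollen libraries than in any non-pollen library, with log2 fold changes of -0.55, -0.43 and -0.50 in rapeseed and -0.45, -0.43 and -0.30 in pear. LOC107997194 lost its pear call without non-pollen replicate 2 (-0.24) or pear replicate 3 (-0.23).

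Glycine ligase (LOC107998369) had 59.6, 59.1 and 55.5 CPM in rapeseed libraries, 61.2, 64.3 and 53.6 CPM in pear libraries and 82.9, 81.1 and 81.2 CPM in non-pollen libraries, changes of -0.49 and -0.45. Lysine (LOC107998192) and glutamine (LOC108003314) ligases changed by -0.47 and -0.45 in rapeseed and by -0.40 and -0.38 in pear. These levels were lower in every pollen library. Phenylalanine ligase is a tetramer of alpha and beta chains, and the alpha chain (LOC107997114) changed by -0.42 and -0.24 while the beta chain (LOC108000852) changed by -0.17 in rapeseed (adjusted p = 0.00398) and -0.11 in pear (adjusted p = 0.0519, edgeR). The beta chain passed in pear without non-pollen replicate 1 (-0.15). The glutamyl-tRNA synthetase (LOC108002197) and a serine ligase-like gene (LOC107999637) were lower in rapeseed (-0.32 and -0.29) and not called in pear (-0.14 and -0.07). The call for LOC108002197 was lost without non-pollen replicate 2 (-0.23) or rapeseed replicate 3 (-0.28). With library totals lysine ligase was at 0.02 in rapeseed and 0.14 in pear, glutamine ligase at 0.05 and 0.15, the alpha chain at 0.08 and 0.30 and the serine ligase-like gene at 0.20 and 0.46.

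Several cytosolic synthetases of animals sit in a multisynthetase complex. Grouped by the amino acids that complex charges, a grouping made after the values were seen, 9 of 9 ligases tested were lower in rapeseed, with a median of -0.45, and 16 of 16 others, with a median of -0.49. In pear 7 of 9 and 13 of 16 were lower, with medians of -0.40 and -0.44. Over all genes tested, 30.2% were lower in rapeseed and 27.5% in pear. Both groups hold ligases with no stated compartment. The 9 include the separate glutamyl-tRNA synthetase LOC108002197 by its amino acid alone, and its place in the complex is not given. The gene for a scaffold protein of this complex (LOC107998135, AIMP2-like) was higher in both comparisons. It had 160.9, 158.8 and 159.2 CPM in rapeseed libraries, 155.6, 159.4 and 158.6 CPM in pear libraries and 131.0, 134.0 and 126.8 CPM in non-pollen libraries, a log2 fold change of 0.29 and 0.27 (adjusted p = 5.39e-08 and 1.91e-07, edgeR). It was higher with library totals too, at 0.78 and 0.81.

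Some genes under the term are not ligases. The selenium transferase (LOC107997996) was not called, with 4.04, 5.51 and 5.09 CPM in rapeseed libraries, 4.22, 4.11 and 5.71 CPM in pear libraries and 5.75, 3.86 and 4.01 CPM in non-pollen libraries. For 6 genes the descriptions name no tRNA-charging enzyme: almondex (LOC107992945), a leucine-rich repeat protein (LOC107994701), ESF1-like (LOC107999619), CCDC25, a balbiani ring protein (LOC107993391) and an APOBEC1 complementation factor (LOC107996730). Of the 4 tested, 0 were called in rapeseed, with a median of 0.01, and 1 in pear, with a median of 0.03. The 1 called was CCDC25, at 54.7, 50.7 and 50.6 CPM in pear libraries and 49.2, 49.4 and 42.9 CPM in non-pollen libraries. Its log2 fold change of 0.14 (adjusted p = 0.0477, edgeR) was no longer called when non-pollen replicate 3, pear replicate 1 or 2, or any rapeseed library was left out (0.08 to 0.16).

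The 3 genes that did not pass the filter had few counts. The partial bifunctional ligase (LOC107995719) had 12, 26 and 9 counts in rapeseed libraries, 30, 22 and 12 counts in pear libraries and 20, 49 and 31 counts in non-pollen libraries. The balbiani ring protein had 4, 16 and 15 counts in rapeseed libraries, 16, 12 and 8 counts in pear libraries and 4, 48 and 8 counts in non-pollen libraries. The APOBEC1 complementation factor had 35, 0 and 12 counts in rapeseed libraries and 0 in all 6 others. Outside the term, the descriptions name 2 further ligases, for aspartate (LOC108001025) and methionine (LOC114577892). They changed by -0.32 and -0.09 in rapeseed and by -0.26 and 0.03 in pear, with no call. The aspartate one is described as cytoplasmic but is not among the cytosolic ligases counted above, and it was low, at 4.13 to 6.43 CPM. The methionine one has no stated compartment and was at 35.2 to 50.5 CPM.

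Few of these genes were called between rapeseed and pear libraries, though most leaned low in rapeseed. Of the 46 tested, 35 were below 0, and their median was -0.056 against -0.007 over all genes tested. In rapeseed against pear edgeR called 13.5% of all genes tested, with 8.23% higher and 5.26% lower. Of the 46 members tested 2 were lower and 0 higher, and of the 14 cytosolic ligases none was called, with a median log2 fold change of -0.09 and a range of -0.17 to 0.05. DESeq2 also called 0 of the 14, and at an unadjusted p under 0.05 edgeR gave 3, all lower. The 95% normal interval of the difference was -0.331 to -0.004 for serine ligase LOC107998620 and -0.08 to 0.12 for leucine ligase LOC107994969. It was -0.270 to -0.041 for isoleucine, -0.310 to -0.027 for serine LOC107998983 and -0.171 to -0.012 for threonine ligases. Of the 14, 9 lay below the median of all genes and 5 above it.

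Subunit A of the glutamyl-tRNA(Gln) amidotransferase (LOC108002462, scaffold NW_016017541.1, 297 to 2034, plus strand) showed the largest difference between the pollen groups. The enzyme converts mischarged glutamyl-tRNA into glutaminyl-tRNA in the mitochondria of most animals, which lack a glutamine ligase. It had 6.52, 6.36 and 6.91 CPM in rapeseed libraries and 10.5, 8.97 and 8.80 CPM in pear libraries, and non-pollen libraries had 9.79, 9.06 and 9.76 CPM. All 3 rapeseed values were below all 6 others, while pear and non-pollen values overlapped. The log2 fold change was -0.51 in rapeseed against pear (SE 0.129, adjusted p = 0.00471), -0.53 in rapeseed against non-pollen (adjusted p = 0.000677) and -0.02 in pear against non-pollen (adjusted p = 0.924, edgeR). Subunit B of the same enzyme, at 47.9, 49.3 and 45.6 CPM in rapeseed libraries, 50.6, 51.9 and 44.2 CPM in pear libraries and 57.7, 49.8 and 47.9 CPM in non-pollen libraries, was not called in any of the 3 comparisons. Against non-pollen with library totals, subunit A was at -0.04 in rapeseed and 0.52 in pear.

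**Figure D4:**
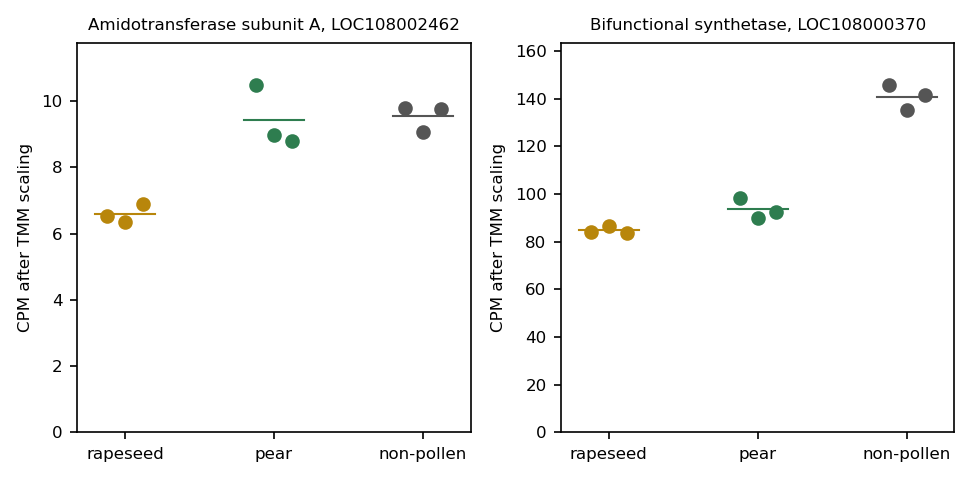
CPM after TMM scaling (vertical axis, from 0) of amidotransferase subunit A (left) and the bifunctional synthetase (right) in each of the 3 rapeseed, 3 pear and 3 non-pollen libraries; lines are group means. For subunit A the rapeseed libraries are at 6.36 to 6.91 CPM and the pear libraries at 8.80 to 10.5 CPM, and for the bifunctional synthetase the pollen groups lie at 83.7 to 98.4 CPM.

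The other call was the bifunctional synthetase LOC108000370, with a log2 fold change of -0.14 in rapeseed against pear (SE 0.0451, adjusted p = 0.0265, edgeR). Rapeseed values (83.7 to 86.4 CPM) were below pear values (89.9 to 98.4 CPM). The call was lost without pear replicate 1 (-0.11), rapeseed replicate 1 (-0.14) or rapeseed replicate 3 (-0.14). The alpha chain of phenylalanine ligase (LOC107997114), not called in rapeseed against pear with all libraries, was called lower without non-pollen replicate 1 (-0.18), pear replicate 2 (-0.25) or rapeseed replicate 2 (-0.22), and so was the serine ligase-like gene LOC107999637 without pear replicate 3 (-0.28). With library totals both were called lower in that comparison (-0.23 and -0.27).

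Other genes of the same biology were counted from lists matched on descriptions, to be read beside the 29.4% higher and 30.2% lower of all genes tested in rapeseed and the 28.5% higher and 27.5% lower in pear. The cytosolic elongation factors are elongation factor 1-alpha, which brings charged tRNAs to the ribosome, its exchange subunits and elongation factor 2, which moves the ribosome along the message. They gave 1 higher and 4 lower of 7 in rapeseed, with a median of -0.40, and 1 higher and 5 lower in pear, with a median of -0.22. The 2 listed genes for elongation factor 1-alpha went opposite ways. LOC108003308 had 1722, 1710 and 1712 CPM in rapeseed libraries, 1606, 1656 and 1737 CPM in pear libraries and 2570, 2470 and 2478 CPM in non-pollen libraries, changes of -0.55 and -0.59. LOC108003711 had 1154, 1158 and 1176 CPM in rapeseed libraries, 1128, 1170 and 1221 CPM in pear libraries and 917.8, 859.9 and 874.5 CPM in non-pollen libraries, changes of 0.40 and 0.41. With library totals LOC108003308 kept a small fall (-0.06 and -0.05) and LOC108003711 was at 0.89 and 0.94. Elongation factors 1-gamma (LOC107995793, -0.53 and -0.57) and 1-delta (LOC108003967, -0.55 and -0.58) fell as LOC108003308 did, and with library totals were not called (-0.06 to -0.03).

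The mitochondrial translation factors were mixed, with 2 higher and 4 lower of 6 in rapeseed (median -0.18) and 2 higher and 3 lower in pear (median -0.10). Mitochondrial initiation factor IF-2 (LOC107997637) was at 0.15 and 0.17, and the release factor C12orf65 (LOC107995783) at -0.50 and -0.45. With library totals the release factor was at -0.01 and 0.09 and not called.

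Genes of amino acid supply that rise in the amino acid stress response of other animals gave 0 higher and 7 lower of 10 in rapeseed (median -0.40) and 0 higher and 6 lower in pear (median -0.35). Asparagine synthetase (LOC107999638), which makes the substrate of the asparagine ligase, stood out. It had 40.8, 43.7 and 42.4 CPM in rapeseed libraries, 46.2, 43.9 and 42.9 CPM in pear libraries and 831.7, 794.0 and 792.5 CPM in non-pollen libraries, log2 fold changes of -4.25 and -4.19 (adjusted p = 1.51e-40 and 2.47e-40, edgeR). D-3-phosphoglycerate dehydrogenase (LOC108004180), the entry enzyme of serine synthesis, had 72.7, 72.0 and 67.4 CPM in rapeseed libraries, 62.4, 63.8 and 69.9 CPM in pear libraries and 195.3, 187.7 and 186.9 CPM in non-pollen libraries, changes of -1.43 and -1.54. Both were lower with library totals as well, at -3.76 and -3.65 for asparagine synthetase and -0.93 and -1.004 for the dehydrogenase. Phosphoserine aminotransferase (LOC107998640, -0.41 and -0.47) and a cystathionine gamma-lyase (LOC107998991, -0.69 and -0.66) also fell, while with library totals the aminotransferase was at 0.09 and 0.07 and not called, and the lyase was called lower in rapeseed (-0.20) and not in pear (-0.13).

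The list of tRNA modification and processing genes, which also caught ribonucleases of the ZC3H12 type and a transmembrane protein that do other work, gave 5 higher and 22 lower of 52 in rapeseed (42.3% lower, median -0.17) and 7 higher and 18 lower in pear (34.6% lower, median -0.13). A tRNA-dihydrouridine synthase (LOC107995914, -0.88 and -0.63) and a queuine tRNA-ribosyltransferase subunit (LOC107998512, -0.87 and -0.86) were among those that fell. Both were lower with library totals too in rapeseed (-0.39 and -0.38), and in pear only the queuine enzyme (-0.32). Another dihydrouridine synthase (LOC107997828) went the other way, with a log2 fold change of 0.39 in rapeseed (adjusted p = 2.18e-06, edgeR), and 0.88 with library totals. The aminoacyl-tRNA quality control list gave 0 higher and 1 lower of 5 in rapeseed (median -0.32) and 0 higher and 3 lower in pear (median -0.38), among them D-tyrosyl-tRNA deacylase (LOC107997553, -0.57 and -0.43), which with library totals was at -0.08 and 0.11.

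The tissue lists moved with the same groups. Of 25 gland genes tested, 8 were higher and 12 lower in rapeseed, with a median of -0.15. Of 28 muscle genes 22 were higher and 5 lower, with a median of 0.43, and of 9 photoreceptor genes 0 were higher and 8 lower, with a median of -4.47. In pear the counts were 7 higher and 14 lower of 25, 22 higher and 4 lower of 28, and 0 higher and 8 lower of 9. Their part in the fall of the cytosolic ligases, and in that of asparagine synthetase, was not tested.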

How the data were processed

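Total RNA of the proboscis was poly(A)-selected, made into libraries that mark the strand and read in pairs. Raw counts per gene were deposited for each library as whole numbers, with no normalization, and beside them the authors gave FPKM, fragment counts which are scaled by gene length and library size. According to the submitters' processing notes, StringTie 2.1.6, HISAT2 2.2.1 and cutadapt 1.9 were used, as were edgeR and DESeq2, with no roles stated. For the genome build, the use of strand in counting and the treatment of reads that match several genes, nothing is given in the sources used here. All per-library columns were matched to a sample, and 46 of the 49 members were found by identifier in a RefSeq gene table of assembly AcerK_1.0.

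Genes with FPKM of at least 1 in at least 3 libraries were tested (9259 of 12757). Counts were fitted with edgeR 4.0.16 (R 4.3.3) with TMM scaling, the 3 groups in one quasi-likelihood fit, and Benjamini-Hochberg adjustment over all genes tested. TMM factors were 0.773 to 0.800 in non-pollen libraries and 1.11 to 1.17 in the others, and the common biological coefficient of variation was 7.92%. FPKM was used for the filter on low values and to describe levels, and not in the tests. Replicates of a group differed by more than sampling noise (chi-square per degree of freedom 6.03 to 14.2). Gene lists matched on descriptions covered elongation and mitochondrial translation factors, the complex scaffold, amino acid stress, tRNA modification, quality control, gland, muscle and photoreceptor genes.

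Values per library are given for up to 4 members per class and comparison with the largest change among those called without overlap, for up to 5 pairs with the largest difference, and the 3 most and 3 least abundant members of each class are named with their FPKM; other members with values per library (cytosolic tyrosine, aspartate, threonine and arginine, the formyltransferase, subunit B, the selenium transferase, CCDC25 and the genes under the filter) were chosen after their values were seen, as were list genes beyond the up to 4 called with the smallest adjusted p. The members and lists were chosen with earlier results of these data known. Alternatives were library totals, DESeq2 1.42.0, no filter, only the 2 groups compared, a replicate block, scaling without gland genes, each library left out, and ligases with no stated compartment counted as cytosolic. No promoter or protein sequences were analysed here.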

Additional observations from a re-analysis of the deposited data

Results flagged for a closer look

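Amidotransferase subunit A (LOC108002462) and the bifunctional synthetase (LOC108000370) differed between the pollen groups, by the test of rapeseed against pear itself. These 2 were 4.35% of the 46 members tested, near the 5.26% of all genes tested that were called lower. The log2 fold change was -0.51 for LOC108002462 (adjusted p = 0.00471, edgeR) and -0.14 for LOC108000370 (adjusted p = 0.0265, edgeR). The call for LOC108000370 was lost without pear replicate 1, rapeseed replicate 1 or rapeseed replicate 3. Values of both genes in each library are given in the report.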

How the results depend on the processing

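Library totals as the only scaling changed most. It gave 5 cytosolic ligases higher and 6 lower in both rapeseed and pear against non-pollen, 12 mitochondrial enzymes higher in rapeseed and 14 in pear, 0 lower in both, and 2 cytosolic ligases lower in rapeseed against pear. Over all 9259 genes tested, this scaling called 7223 in rapeseed and 7562 in pear against non-pollen, of which 89.9% and 91.8% were higher. The mitochondrial counts are to be read beside that background. Against non-pollen this scaling moves all genes together (median 0.47 and 0.53). For rapeseed against pear it moved the median of all genes less, to -0.051 from -0.007 with TMM. The cause of that move was not tested. Counting the ligases with no stated compartment as cytosolic gave 25 lower in rapeseed, 20 in pear and 1 in rapeseed against pear, by the larger set, and gaps of -0.34 and -0.29.

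Without 1 library at a time, cytosolic ligases called lower numbered 13 to 14 in rapeseed, 11 to 13 in pear and 0 in rapeseed against pear, and mitochondrial enzymes 7 to 8, 6 to 7 and 1, with 0 higher throughout. The gap between the sets changed by -0.45 to -0.42 in rapeseed, -0.44 to -0.38 in pear and -0.06 to 0.01 in rapeseed against pear. Replicate numbers did not pair the libraries (correlation of same-numbered deviations -0.149 to 0.06, with 1 of 9 libraries closest to its own number). With the replicate block 14 cytosolic ligases were lower in rapeseed and 12 in pear, and over all genes 5462, 5132 and 1161 were called, against 5520, 5185 and 1249 without it.

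Of the 46 members tested, 26 in rapeseed and 35 in pear against non-pollen were negative with TMM and positive with library totals. In rapeseed the values with library totals were LOC107992494 0.332, LOC107992571 0.235, LOC107992629 0.283, LOC107992689 0.440, LOC107993527 0.104, LOC107993735 0.214, LOC107994691 0.258, LOC107994701 0.353, LOC107995339 0.343, LOC107996013 0.062, LOC107997114 0.075, LOC107997794 0.364, LOC107998192 0.021, LOC107999619 0.448, LOC107999637 0.197, LOC108000678 0.306, LOC108000852 0.323, LOC108000956 0.233, LOC108001027 0.217, LOC108001421 0.402, LOC108002197 0.171, LOC108002207 0.083, LOC108002240 0.371, LOC108002545 0.374, LOC108002856 0.402 and LOC108003314 0.047. In pear they were LOC107992494 0.360, LOC107992571 0.333, LOC107992629 0.350, LOC107992689 0.516, LOC107992945 0.485, LOC107993148 0.527, LOC107993366 0.085, LOC107993527 0.098, LOC107993735 0.372, LOC107994691 0.412, LOC107994701 0.429, LOC107995339 0.479, LOC107996013 0.107, LOC107996526 0.081, LOC107997114 0.300, LOC107997194 0.236, LOC107997514 0.423, LOC107997794 0.316, LOC107998021 0.079, LOC107998192 0.136, LOC107998369 0.084, LOC107999637 0.462, LOC108000678 0.430, LOC108000852 0.421, LOC108000956 0.278, LOC108001027 0.308, LOC108001421 0.401, LOC108002197 0.397, LOC108002207 0.241, LOC108002240 0.454, LOC108002462 0.520, LOC108002508 0.126, LOC108002545 0.458, LOC108002856 0.457 and LOC108003314 0.154. Over all settings, 1948 of 2070 values of single members kept direction and side of the threshold, 61 reversed, 37 lost a call and 24 gained one. All 61 reversals came with library totals, where 55 values stayed the same, 10 lost a call and 12 gained one. Most other settings keep the TMM scaling, so the pooled count says little about the scaling. Separate values of close copies are limited by shared reads, and depth limits the 3 genes under the filter.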
